A study of Homo sapiens with 6 samples.

Results

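Lysosomal hydrolases and lysosomal membrane proteins were followed as a set of 43 genes, chosen by symbol in the deposited table of 36884 genes. The set holds 10 cathepsins, 2 other peptidases, 11 glycosidases, 5 sulfatases, 6 lipid hydrolases and activator proteins, and 9 membrane or sterol-handling proteins. Where a symbol stood in several rows, as for NEU1 and CTSO, the row of highest mean count was taken. All 43 genes were above the low-count filter and were tested.

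Lysosomes are acidic organelles in which proteins, glycans, lipids and nucleic acids are broken down. Most of their soluble hydrolases are made in the endoplasmic reticulum, receive a mannose 6-phosphate tag in the Golgi and are carried to endosomes by receptors for that tag, while heavily glycosylated membrane proteins line the organelle and transporters and channels release its products. Many lysosomal genes carry an E-box of the CLEAR type near their start, which is bound by TFEB, TFE3 and MITF, the MiT/TFE transcription factors. In the retinal pigment epithelium, lysosomes digest the photoreceptor outer segments that the cells engulf each day.

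The cells were RPE1, a non-transformed epithelial line derived from human retinal pigment epithelium, edited with CRISPR-Cas9 so that LATS1 and LATS2, the Hippo pathway kinases that restrain YAP and TAZ, are inactive in every library. One group (3 libraries) was transfected with siRNA against MK5, the kinase encoded by MAPKAPK5, and the other (3 libraries) with control siRNA, and RNA was taken after 48 h. Unedited cells are not among the samples, and the labels do not say whether the line is 1 clone. The submitters describe the replicates as biological without naming separate cultures, so p-values measure the spread between these libraries.

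The libraries held 27188074 to 28188824 counts after MK5 siRNA and 27594088 to 28236773 in controls. MAPKAPK5 (ENSG00000089022) stood at 17.4, 14.1 and 16.2 CPM with MK5 siRNA and at 35.6, 29.05 and 31.3 CPM with control siRNA, where CPM is the count scaled by the library's total and by TMM, a correction for library composition. LATS1 and LATS2 transcripts averaged 18.2 ± 3.16 and 40.1 ± 8.68 CPM with MK5 siRNA and 16.6 ± 3.10 and 37.5 ± 5.27 CPM in controls (SD, n = 3), and neither difference passed (edgeR adjusted p = 0.583 and 0.689). Of the retinal pigment epithelium markers, OTX2 was clearly present (29.6 to 35.9 CPM over all libraries), whereas RPE65, RLBP1 and TYR had 3, 2 and 2 counts over the 6 libraries and TTR had none. PMEL, a melanosome protein, fell to 0.546 ± 0.0938 CPM with MK5 siRNA, against 2.04 ± 0.323 CPM in controls (−1.89 ± 0.27, edgeR adjusted p = 0.00189), and BEST1 averaged 0.697 ± 0.185 CPM with MK5 siRNA and 0.691 ± 0.241 CPM in controls (SD, n = 3). KRT8 and KRT18 were abundant, at 307 to 675 and 79.6 to 152 CPM. Of the other epithelial markers, CDH1 had 12 counts over the 6 libraries and EPCAM had none. KRT8 averaged 363 ± 93 CPM with MK5 siRNA and 642 ± 38.3 CPM in controls, and both keratins fell. Of 7 macrophage markers, a cell type rich in lysosomes, CSF1R held nearly all counts, LYZ had none, and their sum was 3.20 to 3.87 CPM with MK5 siRNA and 7.05 to 9.25 CPM in controls. The part of these differences in the results was not tested.

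Control replicate 1 stood apart from the other controls. In log2(CPM + 0.5), 16 of the 43 lysosomal genes in it lay more than 0.5 from the mean of control replicates 2 and 3, with NPC1 1.55 above and ARSA 1.13 below (deviation −1.13). In MK5 siRNA replicate 1 none of the 43 lay that far from replicates 2 and 3. Over the 43 genes the median absolute deviation of control replicate 1 was 0.30, and over all genes tested it was 0.37. The separation of control replicate 1 was thus not particular to the set. Counts below are therefore also given without replicate 1 in both groups, which leaves 2 libraries against 2. Adjusted p-values of that comparison measure only the spread between replicates 2 and 3, which are not shown to be separate cultures. Levels are shares of the RNA sequenced, so that a change in a gene's RNA per cell and a change in the cells' total RNA cannot be told apart.

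Lysosomal transcripts were higher as a set after MK5 siRNA. Of the 43 genes, 23 rose, 2 fell and 18 did not pass (quasi-likelihood test of edgeR over 13431 genes, adjusted p under 0.05). Over all genes tested, 22.5% rose and 23.7% fell. The median log2 fold change, MK5 siRNA over control siRNA, was 0.63 over the 43 genes and 0.00 over all genes tested. At least 2-fold rises numbered 7 of 43, against 10.8% of all genes, and at least 2-fold falls 2 of 43, against 11.5%. The rises were thus frequent but mostly below 2-fold. In 29 of the 43 genes every MK5 siRNA library lay above every control library (30.6% of all genes tested), and in 2 every one lay below (29.8%). Without replicate 1 in both groups, 28 rose and 5 fell, with 37.9% and 37.8% of all genes rising and falling, and the median was 0.60. All 23 genes that rose with 6 libraries also rose in that comparison. The genes that gained a rise there were NPC1, CTSD, CTSO, TPP1 and MAN2B1, and those that gained a fall were ARSA, IDS and LIPA. With the replicate number as a block, 22 rose and 2 fell, with 23.5% and 23.9% of all genes rising and falling.

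**Figure D1:**
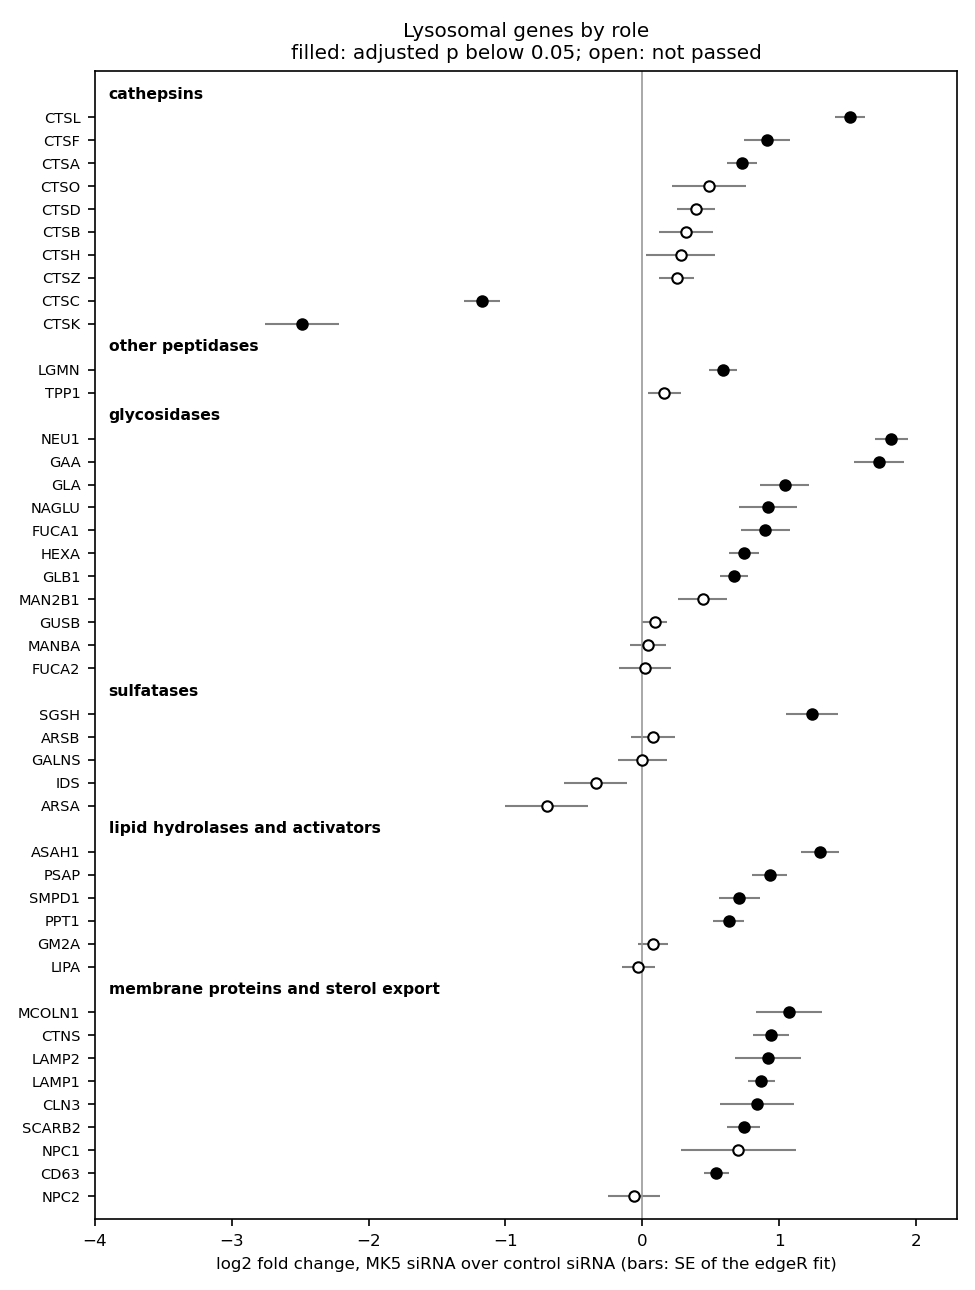
Fitted log2 fold change of each of the 43 lysosomal genes, MK5 siRNA over control siRNA (n = 3 each), grouped by role; bars are the standard error of the edgeR fit, and filled points passed an adjusted p of 0.05. NEU1 (1.82) lies farthest right and CTSK (−2.49) farthest left.

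Together the 43 genes took 1.41%, 1.43% and 1.37% of all counts in MK5 siRNA replicates 1, 2 and 3, and 0.710%, 0.862% and 0.862% in control replicates 1, 2 and 3. PSAP alone, which encodes the precursor of the saposins, took 0.694% ± 0.0245 with MK5 siRNA and 0.339% ± 0.0491 with control siRNA (SD, n = 3). The other 42 genes took 0.708% ± 0.00825 with MK5 siRNA and 0.472% ± 0.0405 with control siRNA. The share was therefore higher in every MK5 siRNA library with PSAP or without it, and it was lowest in control replicate 1.

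Per length of the exons, the order of the levels changed little at the top. PSAP led in both groups, with a mean of 2069 CPM per kb after MK5 siRNA and 1082 CPM per kb in controls. CD63 followed at 270.3 and 186 CPM per kb, CTSD at 158 and 121, and CTSB at 126 and 101. Further down, neighbours in the order often could not be parted, since 26 of 42 neighbouring pairs overlapped in their 3 libraries after MK5 siRNA and 33 of 42 did in controls. CLN3 was the lowest in both groups, at 0.125 and 0.0694 CPM per kb.

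Promoters are shown because the genes that rose together include known CLEAR genes and because the E-boxes differ in number and flank among them. RefSeq windows (GRCh38.p14) from 250 bases before to 50 bases after a gene's start were at hand for 31 of the 43 genes. The motifs searched, on both strands, were CACGTG, which is the same on both strands, and its nested extensions TCACGTG, TCACGTGA and the CLEAR palindrome, which adds a G before and a C after TCACGTGA. Each form contains the shorter ones. CACGTG stood in 11 of 31 genes (35.5%), against 8.77% of 27305 genes with a window and 12.4% of the 10256 tested genes with a window. For the full CLEAR palindrome the share was 3 of 31 genes (9.68%), against 0.421% and 0.907%. Of the other lysosomal proteins described further on, 10 of 43 with a window held CACGTG (23.3%) and 1 held the full palindrome (2.33%). Many lysosomal genes are known to carry such E-boxes, so these shares describe the gene sets and not the response to MK5 siRNA. Windows are printed for NEU1, GAA and MCOLN1, the genes with CACGTG that rose at least 2-fold, for LAMP1 and CTSA, which rose less and hold all but an end letter of the palindrome, and for GALNS, which holds all of it and did not pass. CLN3 also rose less and holds all but an end letter, but its window is not printed. They run 5′ to 3′ on the gene's strand, with capitals on the letters that match the CLEAR palindrome without a break around CACGTG, and NEU1 in full with CACGTG in capitals.
NEU1 (chr6:31862772-31863071, minus strand): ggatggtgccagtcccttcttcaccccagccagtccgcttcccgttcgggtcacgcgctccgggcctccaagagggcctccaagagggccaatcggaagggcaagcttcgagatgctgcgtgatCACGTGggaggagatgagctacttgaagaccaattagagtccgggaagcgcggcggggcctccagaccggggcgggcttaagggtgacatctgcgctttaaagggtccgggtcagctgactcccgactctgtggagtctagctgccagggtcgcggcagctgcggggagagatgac
GAA (chr17:80101485-80101530, plus strand): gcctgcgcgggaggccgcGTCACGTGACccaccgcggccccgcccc
GAA (chr17:80101530-80101575, plus strand): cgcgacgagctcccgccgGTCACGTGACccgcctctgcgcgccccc
MCOLN1 (chr19:7522563-7522608, plus strand): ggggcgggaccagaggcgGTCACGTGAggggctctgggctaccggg
MCOLN1 (chr19:7522590-7522635, plus strand): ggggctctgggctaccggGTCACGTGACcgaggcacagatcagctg
LAMP1 (chr13:113297191-113297236, plus strand): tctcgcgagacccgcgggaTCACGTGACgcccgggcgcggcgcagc
CTSA (chr20:45891290-45891335, plus strand): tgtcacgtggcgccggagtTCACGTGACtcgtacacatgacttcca
GALNS (chr16:88857096-88857141, minus strand): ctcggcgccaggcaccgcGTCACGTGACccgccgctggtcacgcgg

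GAA carried 2 full palindromes, with CACGTG starting 76 and 31 bases before the start, and MCOLN1 carried 1, with CACGTG starting 14 bases before it. LAMP1 held 6 CACGTG words in its window, of which the one printed begins 28 bases before the start. In NEU1 the only CACGTG began 126 bases before the start. GALNS, an N-acetylgalactosamine sulfatase, had the full palindrome, with CACGTG starting 174 bases before the start, and a log2 fold change of 0.00 ± 0.18 (fitted value −0.00). A match is a string of letters, not a site shown to be bound. Of the 11 genes with CACGTG 8 rose, with a median log2 fold change of 0.84, and of the 20 without it 8 rose, with a median of 0.36. CTSL and FUCA1, for example, rose with none of these words in their windows. The 12 genes without a window are in neither count, and whether CACGTG goes with the rise was not tested.

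Of the 10 cathepsins, the lysosomal peptidases, 3 rose, 2 fell and 5 did not pass, which is near the shares of all genes (22.5% rose and 23.7% fell). CTSL (ENSG00000135047), a cysteine endopeptidase, had 317, 265 and 293 CPM in MK5 siRNA replicates 1, 2 and 3, against 97.5, 100.4 and 107 CPM in control replicates 1, 2 and 3. The groups were well apart and the controls nearly alike. Its log2 fold change was 1.52 ± 0.11, a 2.87-fold rise (edgeR adjusted p = 0.000235). CTSF (ENSG00000174080), another cysteine peptidase, was low in both groups, with 18.4, 22.7 and 21.0 CPM after MK5 siRNA and 8.89, 11.9 and 12.1 CPM in controls (0.91 ± 0.17, edgeR adjusted p = 0.00539). CTSA, the serine carboxypeptidase that also protects beta-galactosidase and the sialidase NEU1, rose by 0.73 ± 0.11 (edgeR adjusted p = 0.00214).

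CTSK and CTSC went the other way. CTSK (ENSG00000143387), the collagen-degrading cathepsin best known from osteoclasts, had 2.96, 3.06 and 3.57 CPM with MK5 siRNA, against 11.7, 20.5 and 21.8 CPM with control siRNA. The highest MK5 siRNA library was well below the lowest control, which was replicate 1. The fall was 5.62-fold (−2.49 ± 0.27, edgeR adjusted p = 0.000752). CTSC (ENSG00000109861), which activates granule serine proteases by trimming their ends, had 122, 103 and 106 CPM with MK5 siRNA and 281, 224 and 238 CPM with control siRNA, a 2.25-fold fall (−1.17 ± 0.13, edgeR adjusted p = 0.000795). Both falls passed under all 15 alternatives, with CTSK between −2.72 and −2.35 and CTSC between −1.26 and −1.06.

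The cathepsins that did not pass differed less without replicate 1 in both groups. CTSB, an abundant cysteine cathepsin, had 978, 935 and 886 CPM after MK5 siRNA and 519, 851 and 873 CPM in controls (0.32 ± 0.20, edgeR adjusted p = 0.233), and 0.08 without replicate 1 in both groups. CTSD (ENSG00000117984), the main aspartyl protease of the lysosome, had 480, 514 and 484 CPM after MK5 siRNA and 312, 385 and 434 CPM in controls. Its libraries did not overlap, yet it missed the threshold (0.39 ± 0.14, edgeR adjusted p = 0.0567) and passed under 6 of 15 alternatives. CTSO, CTSH and CTSZ differed by 0.49, 0.28 and 0.25 (edgeR adjusted p = 0.177, 0.384 and 0.147), and by 0.29, 0.11 and 0.09 without replicate 1 in both groups, where CTSO passed (edgeR adjusted p = 0.00482). Of the other peptidases, LGMN, the asparaginyl endopeptidase legumain, rose by 0.59 ± 0.10 (edgeR adjusted p = 0.00407), and TPP1, a tripeptidyl peptidase, did not pass (0.16 ± 0.12, edgeR adjusted p = 0.314), although it did without replicate 1 in both groups (0.20, edgeR adjusted p = 0.00471).

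The glycosidases, which trim sugars from glycoproteins, glycolipids and glycogen, included the 2 largest rises of the 43, NEU1 and GAA. Of 11, 7 rose, none fell and 4 did not pass, against 22.5% rising and 23.7% falling of all genes. NEU1 (ENSG00000204386), the sialidase, had 219.9, 211 and 206 CPM in MK5 siRNA replicates 1, 2 and 3 and 69.0, 54.0 and 57.7 CPM in control replicates 1, 2 and 3. That was a 3.53-fold rise, the largest of the 43 (1.82 ± 0.12, edgeR adjusted p = 0.000209). GAA (ENSG00000171298), the acid glucosidase that degrades glycogen, had 61.6, 66.5 and 60.0 CPM with MK5 siRNA and 14.1, 21.6 and 21.0 CPM with control siRNA, a 3.31-fold rise (1.73 ± 0.18, edgeR adjusted p = 0.000636). Within each group the values were close, apart from the lower control replicate 1 of GAA.

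GLA (ENSG00000102393), the alpha-galactosidase that clears globotriaosylceramide, had 66.5, 44.9 and 53.5 CPM with MK5 siRNA, against 30.5, 23.7 and 26.3 CPM with control siRNA. It spread most among the MK5 siRNA libraries, and rose by 1.04 ± 0.18 (edgeR adjusted p = 0.00366). NAGLU, which acts on heparan sulfate, had 45.6, 55.0 and 53.9 CPM with MK5 siRNA and 19.2, 29.6 and 33.1 CPM in controls (0.92 ± 0.21, edgeR adjusted p = 0.0116). The ganglioside and fucoside enzymes followed at smaller sizes: FUCA1, the lysosomal fucosidase, rose by 0.90 ± 0.18, HEXA, the hexosaminidase alpha chain, by 0.74 ± 0.11 and GLB1, beta-galactosidase, by 0.67 ± 0.10 (edgeR adjusted p from 0.00208 to 0.00654). MAN2B1 and MANBA, the lysosomal alpha- and beta-mannosidases, GUSB, beta-glucuronidase, and FUCA2, a secreted fucosidase, did not pass (0.44, 0.04, 0.09 and 0.02, edgeR adjusted p from 0.0885 to 0.939). MAN2B1 passed without control replicate 1 (0.27) and without replicate 1 in both groups (0.20, edgeR adjusted p = 0.0313 and 0.0127).

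Of 5 sulfatases, SGSH, a heparan sulfate sulfamidase, rose and 4 did not pass. The share that rose is near that of all genes (22.5% rose and 23.7% fell). SGSH (ENSG00000181523) was scarce, with 5.98, 5.77 and 5.89 CPM with MK5 siRNA and 2.64, 2.14 and 2.67 CPM with control siRNA, and its 2.37-fold rise rested on 164 to 175 counts per MK5 siRNA library and 58 to 73 per control library (1.24 ± 0.19, edgeR adjusted p = 0.00220). ARSA, which degrades sulfatide, had 13.3, 14.99 and 13.3 CPM after MK5 siRNA and 12.3, 27.5 and 27.6 CPM in controls. It was level with MK5 siRNA in control replicate 1 only, and it did not pass with 6 libraries (−0.70 ± 0.30, edgeR adjusted p = 0.0998) but fell without replicate 1 in both groups (−0.96, edgeR adjusted p = 9.68e-09). IDS, iduronate sulfatase, passed only under the alternatives that left out control replicate 1 (−0.46 without replicate 1 in both groups, −0.34 ± 0.23 with all libraries). ARSB and GALNS did not pass (0.08 and −0.00).

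Of 6 lipid hydrolases and activators, 4 rose, none fell and 2 did not pass, against 22.5% rising and 23.7% falling of all genes. ASAH1 (ENSG00000104763), acid ceramidase, had 85.9, 91.1 and 88.1 CPM with MK5 siRNA and 29.6, 36.9 and 41.1 CPM with control siRNA, a 2.47-fold rise (1.30 ± 0.14, edgeR adjusted p = 0.000721). PSAP (ENSG00000197746) had 7060, 6728 and 6319 CPM with MK5 siRNA and 3065, 3822 and 3630 CPM with control siRNA (0.93 ± 0.13, edgeR adjusted p = 0.00156). The groups of both genes were apart by more than their own spread. SMPD1, acid sphingomyelinase, rose by 0.71 ± 0.15 and PPT1, a thioesterase that removes palmitate from proteins, by 0.63 ± 0.11 (edgeR adjusted p = 0.00857 and 0.00370). GM2A, the ganglioside activator, and LIPA, acid lipase, gave 0.08 ± 0.11 and −0.03 ± 0.12 (edgeR adjusted p = 0.617 and 0.839), and LIPA fell without replicate 1 in both groups (−0.14, edgeR adjusted p = 0.0385).

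**Figure D2:**
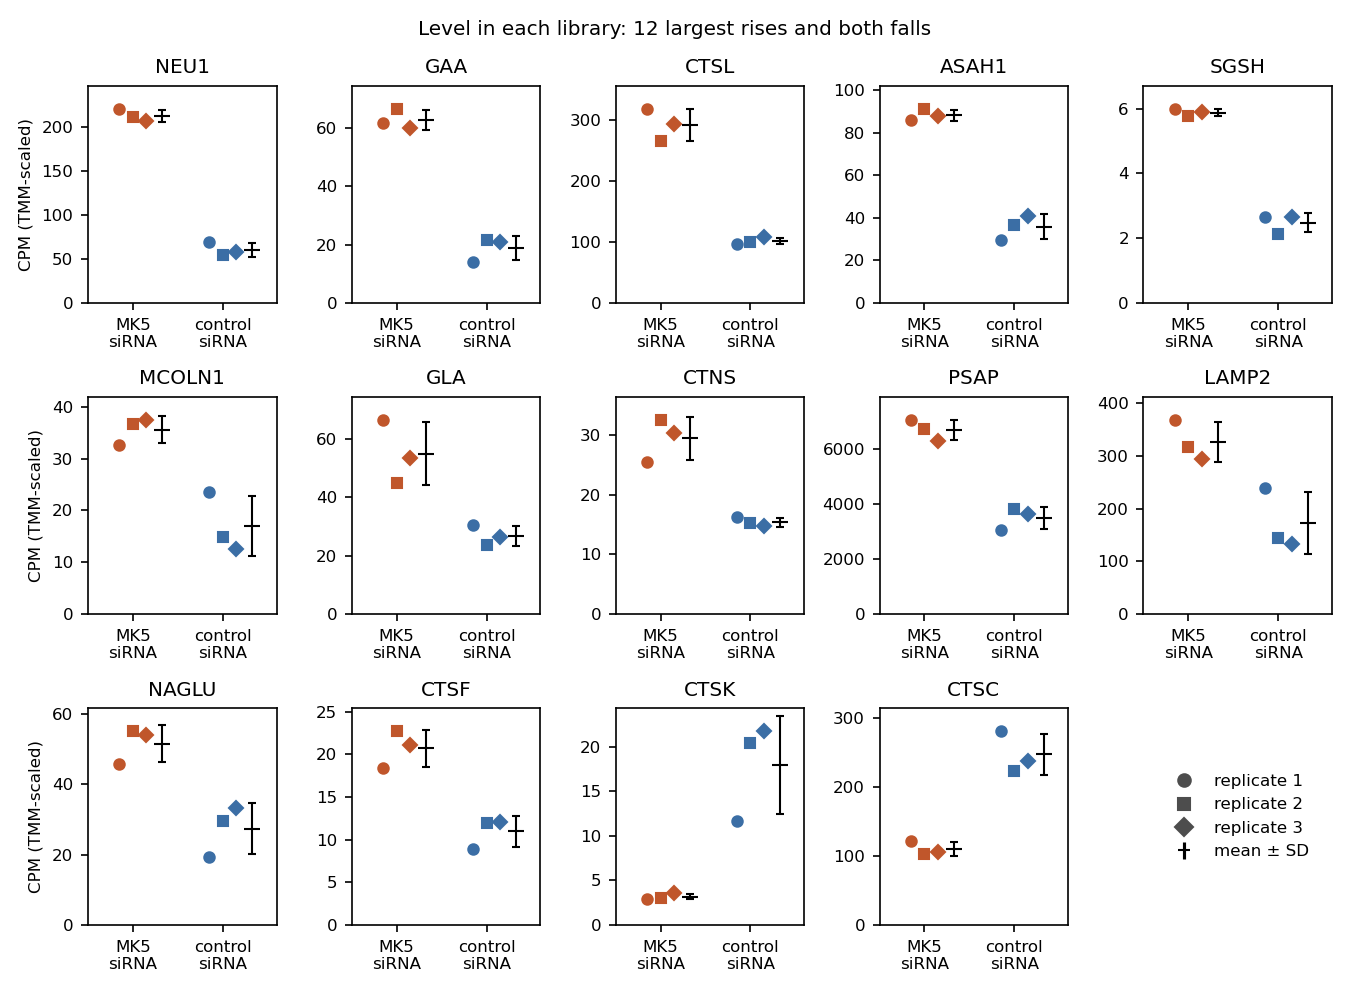
CPM (TMM-scaled, linear axis from 0) in each library for the 12 genes with the largest rises and for CTSK and CTSC, which fell; marker shape gives the replicate number, and black bars the mean ± SD of 3 libraries. In every panel the MK5 siRNA and control siRNA libraries do not overlap, and LAMP2, MCOLN1 and CTSK show the separate control replicate 1.

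Most membrane proteins rose. Of 9 membrane or sterol-handling genes, 7 rose, none fell and 2 did not pass, against 22.5% rising and 23.7% falling of all genes. LAMP1, an abundant glycoprotein of the limiting membrane, had 534, 567 and 585 CPM with MK5 siRNA and 297, 303 and 322 CPM with control siRNA (0.87 ± 0.10, edgeR adjusted p = 0.000798). LAMP2, its relative with a part in chaperone-mediated autophagy, had 368, 317 and 294 CPM with MK5 siRNA and 239.9, 144 and 134 CPM in controls (0.92 ± 0.24, edgeR adjusted p = 0.0179). Control replicate 1 was the highest control of LAMP2, and its rise did not pass without MK5 siRNA replicate 1 or 2 or without control replicate 2 or 3 (edgeR adjusted p from 0.0511 to 0.0695), and adjusted p over the alternatives ran from 2.72e-12 to 0.0695. CD63, a tetraspanin of late endosomes, had 728, 692 and 715 CPM with MK5 siRNA and 476, 485 and 509 CPM with control siRNA (0.54 ± 0.09, edgeR adjusted p = 0.00379), and SCARB2, the receptor that carries glucocerebrosidase to lysosomes, rose by 0.74 ± 0.12 (edgeR adjusted p = 0.00323).

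The channels and transporters were less abundant. MCOLN1 (ENSG00000090674), the TRPML1 calcium channel, had 32.7, 36.8 and 37.4 CPM with MK5 siRNA and 23.5, 14.9 and 12.5 CPM with control siRNA (1.07 ± 0.24, edgeR adjusted p = 0.0102). CTNS, the cystine exporter, had 25.6, 32.5 and 30.3 CPM with MK5 siRNA and 16.2, 15.3 and 14.7 CPM with control siRNA (0.94 ± 0.13, edgeR adjusted p = 0.00191). Both were clear of the controls, although MCOLN1 rose less in replicate 1 (0.46) than in replicates 2 and 3 (1.28 and 1.55), as differences of log2(CPM + 0.5). CLN3, a membrane protein lost in juvenile Batten disease, passed narrowly on 27 to 41 counts per MK5 siRNA library and 16 to 20 per control library (0.84 ± 0.27, edgeR adjusted p = 0.0408). It did not pass in DESeq2 (adjusted p = 0.0695), without a low-count filter (edgeR adjusted p = 0.0902), with a replicate block (edgeR adjusted p = 0.0612) or without MK5 siRNA or control replicate 2 or 3, and adjusted p over its alternatives ran from 0.00186 to 0.163.

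NPC1 and NPC2, the membrane and soluble proteins that pass cholesterol out of the lysosome, differed from each other. NPC1 (ENSG00000141458) had 278, 241 and 229 CPM after MK5 siRNA and 274, 97.5 and 89.0 CPM in controls. Control replicate 1 alone was at the level of the MK5 siRNA libraries, and the log2 fold change of 0.70 ± 0.42 did not pass (edgeR adjusted p = 0.214). Without replicate 1 in both groups NPC1 rose by 1.34 (edgeR adjusted p = 3.52e-13), and without control replicate 1 by 1.42. NPC2 had 219.98, 175 and 162 CPM after MK5 siRNA and 241, 168 and 169 CPM in controls, with no difference that passed (−0.06 ± 0.19, edgeR adjusted p = 0.830).

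**Figure D3:**
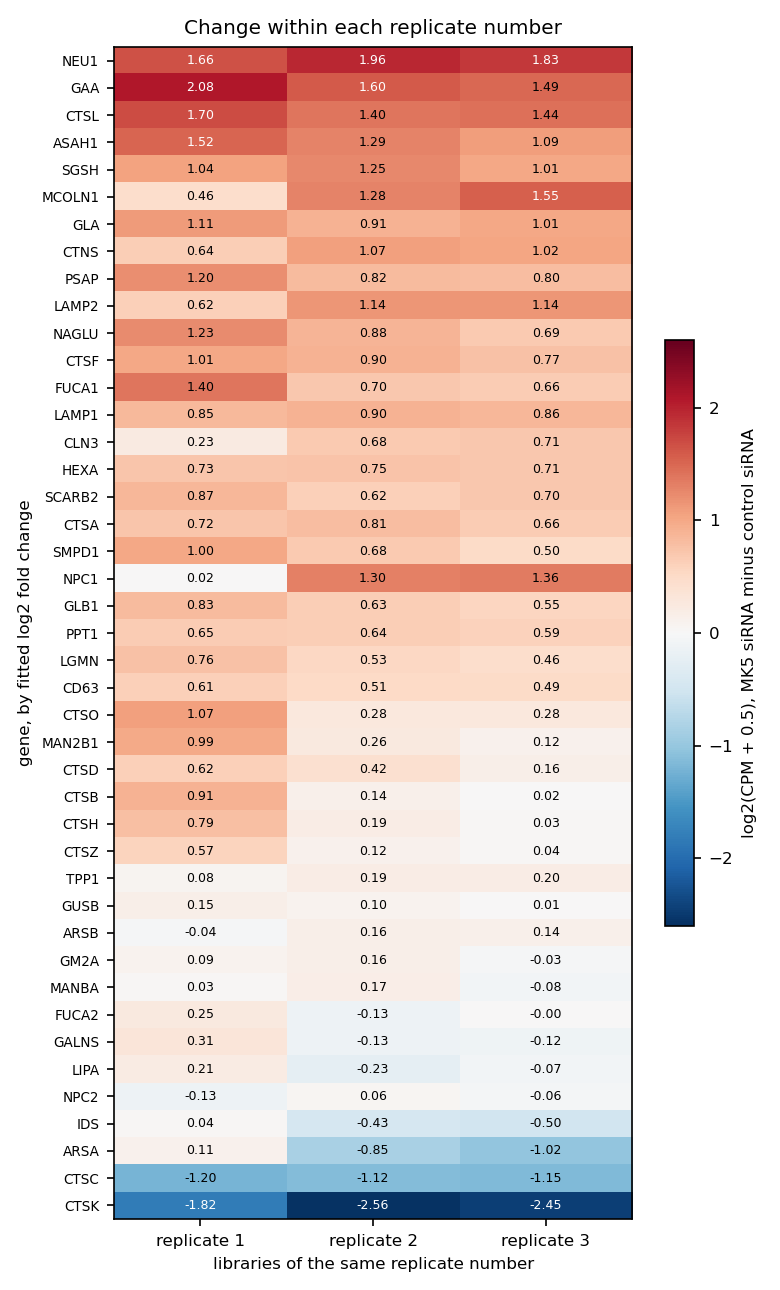
Differences of log2(CPM + 0.5), MK5 siRNA minus control siRNA, within each replicate number, for the 43 genes in order of the fitted log2 fold change; red is higher and blue lower after MK5 siRNA. A total of 32 genes were higher and 2 lower in all 3 columns, and NPC1 (0.02, 1.30 and 1.36) and ARSA (0.11, −0.85 and −1.02) differ most between replicate 1 and the others.

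Within replicate numbers 1, 2 and 3 the median change of the 43 genes was 0.65, 0.62 and 0.50, and 39, 36 and 33 genes were higher after MK5 siRNA. The set's direction was therefore shared by the 3 numbers, while single genes were not equally steady. Some genes that did not pass differed in replicate 1, where the control was low, more than in replicates 2 and 3, such as CTSB (0.91, 0.14 and 0.02), MAN2B1 (0.99, 0.26 and 0.12) and CTSH (0.79, 0.19 and 0.03). LAMP1, HEXA, PPT1 and CD63 moved nearly alike in the 3 numbers, with LAMP1 at 0.85, 0.90 and 0.86.

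Lysosomal proteins outside the 43 also held more rises than falls. Of 56 further lysosomal genes, 48 were tested, 16 rose, 4 fell and 28 did not pass, with a median log2 fold change of 0.28, against 22.5% rising and 23.7% falling of all genes. SLC17A5, the sialic acid exporter sialin, had 217, 170 and 171 CPM with MK5 siRNA and 28.4, 19.4 and 18.1 CPM with control siRNA, an 8.48-fold rise (3.08 ± 0.21, edgeR adjusted p = 0.000212). Sialin exports the sugar that NEU1 releases. MCOLN3, a relative of MCOLN1, rose by 2.43 ± 0.21 to 6.21 ± 0.263 CPM with MK5 siRNA, against 1.15 ± 0.198 CPM in controls (edgeR adjusted p = 0.000383). CTSV, a relative of CTSL, fell by 3.43 on the log2 scale (SE 0.74, edgeR adjusted p = 0.00900), with 0.328, 0.139 and 0.269 CPM after MK5 siRNA and 5.44, 1.25 and 1.35 CPM in controls. Without replicate 1 in both groups, 33 of the 48 rose and 9 fell, against 37.9% and 37.8% of all genes.

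Of 18 genes for mannose 6-phosphate tagging and sorting, 5 rose, 6 fell and 7 did not pass (median 0.17). These shares are near those of all genes (22.5% rose and 23.7% fell). IGF2R, the large mannose 6-phosphate receptor, had 1237, 1118 and 1146 CPM with MK5 siRNA and 420.4, 467 and 452 CPM with control siRNA (1.39 ± 0.10, edgeR adjusted p = 0.000247). The subunits of the AP-3 adaptor, which sorts membrane proteins to lysosomes, parted: AP3D1 rose by 1.69 ± 0.10 and AP3M1 fell by 2.11 (SE 0.19), at 24.8 ± 3.98 CPM after MK5 siRNA against 107 ± 21.3 CPM in controls (edgeR adjusted p = 0.000201 and 0.000424). Of 17 subunits and partners of the V-ATPase, the proton pump that acidifies the lumen, 8 rose and none fell (median 0.46). Over all genes, 22.5% rose and 23.7% fell. The V-ATPase genes were led by ATP6V1G1 (1.41 ± 0.14), ATP6V0B (1.21 ± 0.11) and ATP6AP1 (1.02 ± 0.09, edgeR adjusted p from 0.000434 to 0.000501 over the 3).

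The MiT/TFE factors themselves did not rise together. TFEB had 7.70, 7.65 and 6.598 CPM after MK5 siRNA and 2.80, 6.19 and 6.44 CPM in controls (0.51 ± 0.32, edgeR adjusted p = 0.230), and 0.18 without replicate 1 in both groups. TFE3 gave −0.25 ± 0.10 (edgeR adjusted p = 0.0731) but fell in DESeq2 (adjusted p = 0.0272), without control replicate 1 (edgeR adjusted p = 0.0200) and without replicate 1 in both groups (−0.31, edgeR adjusted p = 0.000123). MITF had 29.1, 24.4 and 22.4 CPM with MK5 siRNA, against 52.4, 58.7 and 51.0 CPM with control siRNA, a 2.14-fold fall (−1.09 ± 0.14, edgeR adjusted p = 0.00114). TFEC, a scarce relative, rose by 1.56 ± 0.26 to 1.29 ± 0.113 CPM, against 0.434 ± 0.0367 CPM in controls (edgeR adjusted p = 0.00314). Transcript levels do not show where these proteins sit or whether they are phosphorylated.

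Their nutrient regulators included the largest change of any list. Of 22 factors and regulators, 6 rose, 4 fell and 12 did not pass (median 0.08), against 22.5% rising and 23.7% falling of all genes, so that the counts are near the background. RRAGD, a Rag GTPase that recruits MiT/TFE factors to lysosomes, had 3.32, 4.10 and 5.08 CPM with MK5 siRNA and 0.268, 0.0369 and 0.293 CPM with control siRNA, or 91, 118 and 151 counts and 7, 1 and 8 counts (4.36 ± 0.52, edgeR adjusted p = 0.001001). FLCN, folliculin, which activates RRAGC and RRAGD, rose by 1.10 ± 0.11 (edgeR adjusted p = 0.000544), while its partners FNIP1 and FNIP2 fell by 0.54 and 0.91 on the log2 scale (edgeR adjusted p = 0.00736 and 0.00551). Of 25 tested genes of late endosome fusion and lysosome positioning, 9 rose and 5 fell (median −0.08), against 22.5% and 23.7% of all genes. PLEKHM1 (1.31 ± 0.20), LYST (1.24 ± 0.33) and SNAPIN (−0.94 ± 0.14) changed most (edgeR adjusted p from 0.00218 to 0.0196). LYST did not pass without MK5 siRNA replicate 1 or control replicate 2 or 3, and its adjusted p over the alternatives ran from 1.25e-10 to 0.0703. The cystatins, inhibitors of cysteine cathepsins, did not pass: CST3 gave 0.14 ± 0.12 and CSTB 0.32 ± 0.17 (edgeR adjusted p = 0.356 and 0.155), both rose without replicate 1 in both groups, and 6 others had too few counts to test.

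**Figure D4:**
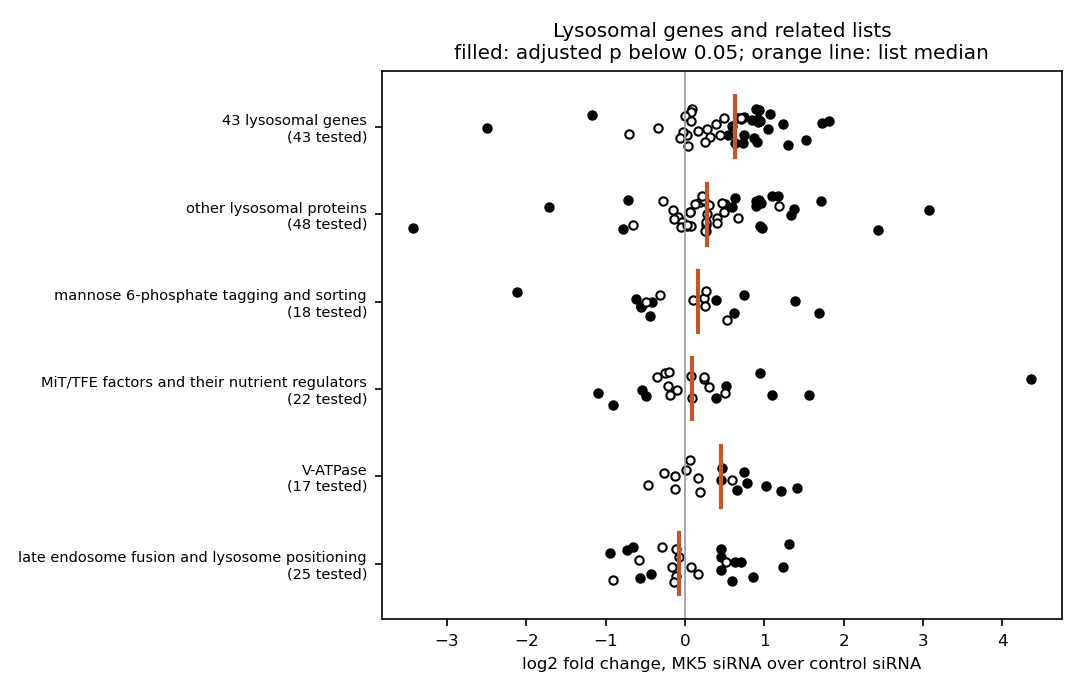
Log2 fold change, MK5 siRNA over control siRNA, of every tested gene in the 43-gene set and in 5 related lists; filled points passed an adjusted p of 0.05, orange lines are medians, and points are spread vertically only for clarity. The medians run from 0.63 for the 43 genes to −0.08 for fusion and positioning genes, and RRAGD (4.36) and CTSV (−3.43) are the extremes.

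Overlapping genes limit some of these counts. For genes on the opposite strand the limit depends on the strand setting of the counting, which is not given in the sources used here. In the GENCODE 29 annotation (GRCh38), exons of other genes covered 41.7% of the exon bases of CTSD on its own strand and 25.2% of those of CLN3, and on the opposite strand 28.5% of those of CTSA and 23.4% of those of PPT1. Smaller same-strand overlaps lay in MAN2B1 (21.2%), IDS (17.4%), NAGLU (12.6%) and TPP1 (11.6%), among others. On the opposite strand FUCA2 (16.9%) and HEXA (13.0%) were also covered in part. Reads in such stretches could have been dropped or given to the other gene, so levels of all these genes are uncertain. NEU1 and GAA had no such overlap.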

How the data were processed

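RNA-seq libraries of LATS1/2-inactivated RPE1 cells, 3 with MK5 siRNA and 3 with control siRNA, were compared. The deposited values are whole-number counts per gene, although the table is named for CPM; TruSeq V2 libraries were made from total RNA per the labels' protocols. Build GRCh37 and the tools HTSeq 0.9.1, TopHat2 2.1.1, Trimmomatic 0.36 and FastQC are listed in the submitters' processing notes, with no order or settings. Low counts were removed by filterByExpr (count 10, total 15) of edgeR 4.0.16 in R 4.3.3, which scaled libraries by TMM and ran the quasi-likelihood test with Benjamini-Hochberg adjustment (threshold 0.05, two-sided). The test was also run on simulated counts, with the same spread for every gene and no separate control library. The real libraries differ from that setting, so no conclusion is drawn from it.

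The 43 genes and the other lists were chosen with earlier results of these data known. Every gene that passed is named, with values by library for the 12 largest rises, the falls and the 3 highest per length, and the 3 largest changes of each other list. Some further genes were described after their values were seen. Exon lengths came from GENCODE 29. DESeq2 1.42.0 and voom in limma 3.58.1 were alternatives.

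Replicate numbers were taken as pairs because deviations from group means correlated between libraries of the same number (0.258, 0.206 and 0.248), which is read from the data, not from the labels. Replicates 2 and 3 also correlated across their numbers (0.182 and 0.151) and replicate 1 ran against both (−0.208 to −0.263), so the deviations mainly set replicate 1 apart. At mean counts of at least 1000, replicates 2 and 3 differed by more than sampling noise (variance over the Poisson value 7.57 with MK5 siRNA and 12.2 in controls). That ratio was 1.95 and 2.88 at mean counts from 200 to 1000, and 0.972 and 0.934 in a low range starting at 2. The spread beyond sampling noise was thus smaller at lower counts and was not seen in the low range. Mean counts between that range and 200 were not examined. The comparisons without replicate 1 in both groups rest on the spread between replicates 2 and 3.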

Additional observations from a re-analysis of the deposited data

How the results depend on the processing

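In all, 15 alternatives were run. Of 644 values of the 43 genes under them, 594 kept direction and side of the threshold, 11 lost and 17 gained the call and 22 turned sign, all 22 in genes that had not passed. Of the 23 rises, 21 to 23 were kept under each alternative. When 1 library was left out, 21 to 26 of the 43 rose and 2 to 4 fell, and over all genes 2064 to 4455 rose and 2103 to 4419 fell. Other lysosomal proteins then had 15 to 28 rises and 2 to 7 falls, sorting genes 3 to 7 rises and 2 to 7 falls, MiT/TFE factors and regulators 4 to 9 rises and 3 to 8 falls, fusion genes 3 to 8 falls and cystatins 0 to 2 rises; the highest counts were without control replicate 1. Without replicate 1 in both groups, 5 of the 43 fell, 5195 and 5177 of all genes rose and fell, other lysosomal proteins had 33 rises and 9 falls, MiT/TFE factors and regulators 10 rises and 8 falls, fusion genes 10 falls and cystatins 2 rises. With library totals only, the median of all genes moved by 0.10, that of the 43 genes was 0.73, other lysosomal proteins had 2 falls, sorting genes 3 falls and cystatins 1 rise. Without a low-count filter 1 cystatin fell. The cause of these moves was not tested.

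With a replicate block only CLN3 lost its call among the 43 (edgeR adjusted p = 0.0612). Values that turned sign were small. With 1 library left out, MANBA ran from −0.02 to 0.13, FUCA2 from −0.15 to 0.12, ARSB from −0.04 to 0.23, GALNS from −0.17 to 0.08, LIPA from −0.11 to 0.01, NPC2 from −0.19 to 0.14, LATS1 from −0.01 to 0.31 and LATS2 from −0.09 to 0.21. Without replicate 1 in both groups FUCA2 gave −0.06 and NPC2 0.00. With library totals only GALNS gave 0.09, LIPA 0.07 and NPC2 0.05. GALNS also gave 0.00 with upper-quartile factors, 0.02 with voom and with the replicate block, and 0.01 with the 1 CPM filter.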

Other observations

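Further lysosomal genes that rose form small groups of their own. TMEM192 (1.37 ± 0.10), CD164 (1.17 ± 0.10), LAPTM4A (0.89 ± 0.10) and SIDT2 (0.94 ± 0.10), all lysosomal membrane proteins, rose with little spread (edgeR adjusted p from 0.000227 to 0.000793). MFSD8, the membrane protein of another Batten-type disease, rose by 1.10 ± 0.16 and LMBRD1, the cobalamin exporter partner, by 0.97 ± 0.14 (edgeR adjusted p = 0.00193 and 0.00205). Of the soluble hydrolases outside the 43, AGA, which cleaves asparagine-linked glycans, rose by 1.34 ± 0.21, DNASE2 by 0.93 ± 0.20 and HYAL3 by 1.72 ± 0.26; adjusted p of these 3 in edgeR lay between 0.00225 and 0.00860. These genes were named after their values were seen.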
